A study of Rattus norvegicus with 24 samples.

Results

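The genes described here encode the machinery of cell division. A list of 35 symbols with known roles in division was used, and 34 of them are in the expression table, which holds 13458 symbols in all; Anln is not analysed here. The RNA came from the tibialis anterior (TA), which lifts the foot, of 12 male rats aged 23 ± 1 months. In 9 animals tetrodotoxin (TTX), a sodium channel blocker, was delivered by an implanted pump to the left common peroneal nerve, and the untreated right TA of these 9 animals formed the control group. For atrophy, 3 left TA were collected once TTX had run for 6 to 7 days. For recovery, 3 were collected when 9 days without TTX had followed, and for repeated atrophy 3 were collected when a second TTX period of 5 to 6 days had followed that. Both limbs of 3 sham animals, given saline in place of TTX, 1 animal per time point, form the groups sham left and sham right, each with 3 limbs. The control limb therefore belongs to an animal that was itself operated on and treated in the other leg, and each treated group is 3 animals.

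As background, a cell that is about to divide first raises D and E type cyclins in G1, loads the MCM helicase onto replication origins, copies its DNA in S phase and then builds a spindle and divides in M phase. Genes for S phase are largely driven by E2F factors, while genes for G2 and M phase are held down in resting cells by the DREAM complex, which binds a promoter element called the cell cycle homology region (CHR). Nuclei inside muscle fibres do not divide, so in adult muscle these transcripts come mainly from mononuclear cells such as muscle stem cells, fibroblasts, endothelial cells and leukocytes. Some members, among them Pcna and Smc2, also serve DNA repair or chromosome structure and are transcribed outside of division.

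Levels are in CPM, the counts of a gene scaled to the same total in every library, and 1 read was worth at most 0.053 CPM. Depth inferred from this step ranged from 18.9 to 30.9 M reads (median 26.1 M). A gene was called at a fold of 1.2 or more and a limma p, adjusted by Benjamini-Hochberg over all 14031 rows tested, of 0.05 or less, on the log2(CPM + 1) scale. Fold changes are on this scale, so they understate the change of genes near or below 1 CPM. Over all rows the median log2 fold change was 0.22 in atrophy and 0.20 in repeated atrophy but 0.02 in recovery, and it fell to 0.00, -0.01 and 0.00 when limbs were rescaled by trimmed means; the members' calls against control are therefore also given after rescaling. All 9 myofibre markers were measured, and their sum was 161539 to 227008 CPM in control, 80139 to 171570 in the atrophy limbs and 103089 to 139936 in those of repeated atrophy. In whole muscle, a change in the number of a cell type and a change in RNA per cell cannot be told apart.

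The promoters of the members share features that the list did not use. RefSeq promoters (GRCr8, from 250 bases before to 50 after the start) matched 28 of the 35 symbols, and 27457 symbols have one in all. A CCAAT box (CCAAT on either strand) was in 75% of the members' promoters and in 37.7% of all. The CHR letters TTTGAA, on either strand, were in 50% against 18.1%, and both together were in 39.3% against 7.25%. E2F type letters, any of the motifs TTCCCGC and TTCGCGC as well as TTGCCGC and also TTGGCGC on either strand, were in 39.3% against 10%. They were in 5 of 6 promoters of the DNA replication members and in 0 of 6 of the mitotic kinases and checkpoint members, of which 4 held the CHR letters. Matches of different motifs overlap in 2 members, Mcm7 and Mki67. A match is a description of letters and not of a bound site. The 150 bases before the start are printed for 6 members of the results below, with every match in capitals and the strand of the gene. The first 3 are genes that were higher in recovery or lower in repeated atrophy than in recovery, and the last 3 were higher in repeated atrophy. They were picked by these results and do not stand for all called members.
Mki67, chr1:199952594-199952743, minus strand: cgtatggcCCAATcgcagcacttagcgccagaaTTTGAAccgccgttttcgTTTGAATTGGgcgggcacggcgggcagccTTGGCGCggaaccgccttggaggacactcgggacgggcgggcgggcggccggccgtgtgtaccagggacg
Top2a, chr10:84473094-84473243, minus strand: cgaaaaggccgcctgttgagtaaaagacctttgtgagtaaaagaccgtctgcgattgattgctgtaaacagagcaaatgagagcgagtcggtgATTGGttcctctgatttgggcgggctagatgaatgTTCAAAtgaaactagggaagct
Cdk1, chr20:19265143-19265292, plus strand: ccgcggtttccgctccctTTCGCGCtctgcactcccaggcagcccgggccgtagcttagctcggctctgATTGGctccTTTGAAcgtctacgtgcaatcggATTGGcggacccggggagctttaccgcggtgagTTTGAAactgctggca
Pcna, chr3:139955821-139955970, minus strand: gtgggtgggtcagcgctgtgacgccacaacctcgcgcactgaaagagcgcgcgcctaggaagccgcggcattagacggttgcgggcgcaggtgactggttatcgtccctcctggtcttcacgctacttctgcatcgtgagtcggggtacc
Smc2, chr5:71602255-71602404, plus strand: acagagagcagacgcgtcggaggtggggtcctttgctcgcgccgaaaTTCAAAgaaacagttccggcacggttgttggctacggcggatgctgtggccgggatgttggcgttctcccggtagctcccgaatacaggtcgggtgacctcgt
Ccne1, chr1:99927910-99928059, minus strand: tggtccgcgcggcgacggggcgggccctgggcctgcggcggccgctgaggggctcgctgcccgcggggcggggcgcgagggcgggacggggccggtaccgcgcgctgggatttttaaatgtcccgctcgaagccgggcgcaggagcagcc
Within these stretches Mki67, Top2a and Cdk1 each hold a CCAAT box and CHR letters, and Mki67 and Cdk1 hold E2F type letters too. Smc2 holds CHR letters alone there, and Pcna and Ccne1 hold none of the 3 motifs. Over the full promoters used for the shares, Pcna and Smc2 also hold a CCAAT box, at -168 and -248. Of other members called higher in repeated atrophy, Prc1 holds CCAAT boxes and CHR letters and Ccnb1 CCAAT boxes, both also called in recovery. Rrm1 holds a CCAAT box and E2F type letters, Aurka none of the 3, and Mcm4 and Rrm2 have no promoter entry. Whether motifs differ between genes called in different groups was not tested.

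In control muscle 20 of the 34 members had a mean under 1 CPM and 14 had one above it. Per kilobase of the listed transcript length, the highest control means were 22.7 CPM per kb for Pcna (the clamp of DNA polymerase), 15.5 for Rrm1 (the large subunit of ribonucleotide reductase) and 14.2 for Mcm7, followed by 9.82 for Tpx2. The lowest were 0.027 for Bub1b, 0.029 for Cenpf and 0.044 for Kif11. In unscaled CPM, 15 of the 34 had a mean under 1 CPM over the 24 limbs and only 11 were above 1 CPM in every limb. Of 816 values 26 were at 0, in 13 members; Ccna2, the cyclin of S phase and G2, was at 0 in 5 limbs and Bub1b, a checkpoint kinase, in 4.

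**Figure D1:**
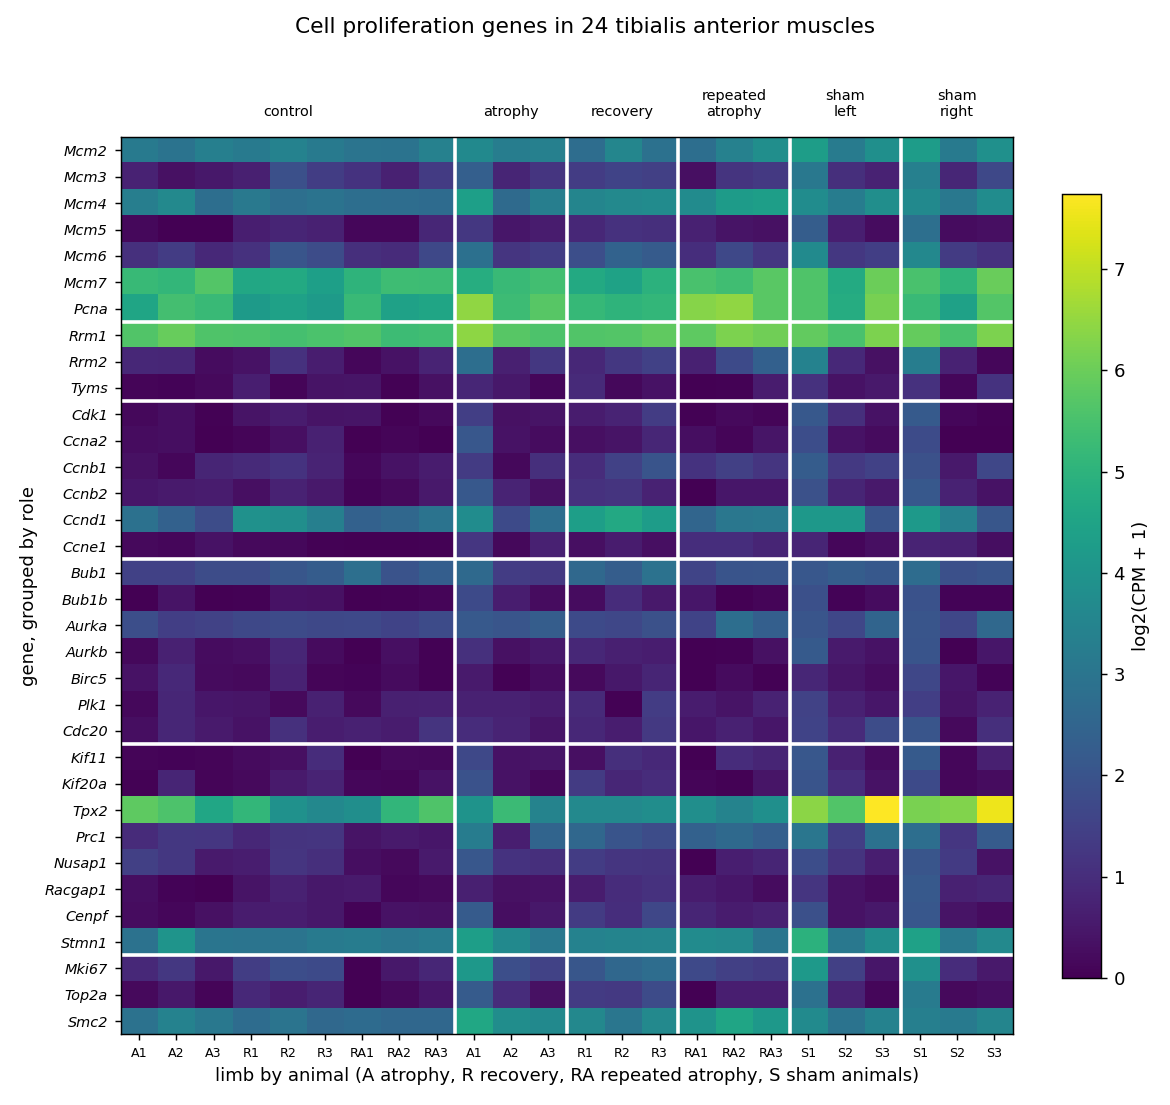
Level of each member (rows, grouped by role) in each limb (columns, grouped as labelled and named by animal), as log2(CPM + 1) on a colour scale. Most mitotic genes are dark, near 0, in control, and both limbs of sham animal 1 and the left limb of atrophy animal 1 are brighter across most of them.

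After the first TTX period, 6 members (17.6%) were higher than control and 0 were lower. Of all rows tested 20.3% were called higher and 2.33% lower, so the share of members called higher is near the background. The 6 were Pcna, Ccne1 (cyclin E1, which activates Cdk2 at the G1 to S transition), Bub1b, Prc1 (a bundler of midzone microtubules), Mki67 (the Ki-67 antigen of dividing cells) and Smc2 (the core of condensin). Of the 34, 30 had a positive fold change, with a median of 0.48. After rescaling 26 were positive, the median was 0.23, and only Ccne1 and Smc2 were called, against 4.55% of all rows.

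The Smc2 level was 23.6, 13.0 and 11.7 CPM in the 3 atrophy limbs and 4.95 to 9.70 CPM in the 9 control limbs (median 5.73). Smc2 was the 1 called member of atrophy that stayed apart from control in all limbs and was called with either scaling, with a log2 fold change of 1.18 ± 0.23 (SE, limma adjusted p = 0.0064, rescaled 0.84, adjusted p = 0.017). Its row lies at chr5:66807011-66853242 (rn7, plus strand). Mki67 (chr1:190496319-190522763, minus strand) measured 16.5, 2.61 and 1.85 CPM against 0 to 2.54 CPM in control (median 0.854), so 1 limb stood far above and 1 lay within the control range. Its fold change was 1.51 ± 0.44 (adjusted p = 0.022, rescaled 1.25, adjusted p = 0.079). Pcna (chr3:119499039-119502912, minus strand) measured 87.8, 38.3 and 51.7 CPM against 17.6 to 41.9 in control, an overlap of 1 limb. Its fold change was 1.13 ± 0.27 (adjusted p = 0.011, rescaled adjusted p = 0.051).

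These calls leaned on atrophy animal 1. In its left limb 32 of the 34 members were higher than in its right limb, with a median difference of 1.13 on the log2 scale, whereas in atrophy animals 2 and 3 the counts were 18 and 27 and the medians 0.01 and 0.26. Of all rows tested, 69%, 45.8% and 67.8% were higher in the left limb of these 3 animals, with medians of 0.35, 0.00 and 0.17. Its left limb held 3.70 CPM of Top2a (topoisomerase II alpha), 3.33 CPM of Ccna2 and 3.41 CPM of Ccnb2, where the other atrophy limbs reached at most 0.961, 0.307 and 0.717 CPM. Without atrophy animal 1, limma called 0 of the 34 and 1 row of the whole table, and without atrophy animal 2 it called 14, beside 30.7% of all rows. With the animal as a block, which uses the right limb of the same animal, 0 members were called and 0% of all rows higher (smallest adjusted p of a member 0.15, for Mki67), although 17 had an unadjusted p under 0.05 in the fit without the block and none of these was lower, where 32.5% of all rows were higher and 4.60% lower at that p. Summed macrophage markers were 400 CPM in the left limb of atrophy animal 1 and 127 and 276 CPM in the other atrophy limbs, against 81.9 to 283 in control. Lymphocyte markers were 17.8 CPM in that limb and 13.0 and 13.2 in the other 2, all within the 4.78 to 21.9 of control. Summed fibroblast markers were 667 CPM in that limb, against 247 and 423 CPM in the other atrophy limbs and 220 to 644 in control. Of 12 macrophage, 9 tested lymphocyte and 8 fibroblast markers, limma called 0 in atrophy; their part in the result was not tested.

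After 9 days of recovery the members higher than control were Ccnb1 (cyclin B1), Ccnd1 (cyclin D1, the G1 cyclin that responds to growth factors), Prc1, Racgap1 (which positions the cleavage furrow), Cenpf (a kinetochore protein), Mki67 and Top2a. These are 7 members higher and 0 lower, beside 4.40% of all rows called higher and 3.33% lower. At an unadjusted p under 0.05, 15 were higher and 1 lower, and of all rows 14.2% and 10.8%. The fold change was positive for 31 of the 34 with a median of 0.51, against 0.02 over all rows. Rescaling left this as it was: 31 were positive, the median stayed 0.51, and 8 were called, the same 7 and Cdk1 (the kinase that drives mitosis), beside 5.77% of all rows.

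Ccnd1 (chr1:200089002-200098525, minus strand) measured 19.3, 24.5 and 18.4 CPM in recovery and 2.47 to 14.1 CPM in control (median 6.39). The groups did not overlap, and the fold change was 1.53 ± 0.41 (adjusted p = 0.031). Mki67 measured 3.19, 5.03 and 5.79 CPM, all above the highest control limb, with a fold change of 1.48 ± 0.44 (adjusted p = 0.046). Top2a (chr10:83946186-83975697, minus strand) measured 1.52, 1.43 and 2.43 CPM against 0 to 0.871 CPM in control. Top2a, which untangles DNA before chromosomes part, was thus above control in all 3 limbs (1.04 ± 0.28, adjusted p = 0.033). Cenpf showed the same separation, with 1.52, 1.02 and 2.14 CPM against 0.046 to 0.553 (0.97 ± 0.27, adjusted p = 0.035), as did Prc1 with 4.96, 3.03 and 2.48 CPM against 0.322 to 1.38 (1.23 ± 0.36, adjusted p = 0.044). Ccnb1 and Racgap1 overlapped with control by 1 or more limbs. Their folds were 0.91 ± 0.25 (adjusted p = 0.035) and 0.58 ± 0.15 (adjusted p = 0.022).

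By role, the calls of recovery fell on the spindle and cytokinesis members (3 of 8), the mitotic chromosome members (2 of 3) and the cyclins with Cdk1 (2 of 6), while 0 of 7 DNA replication members, 0 of 3 for deoxynucleotide supply and 0 of 7 mitotic kinases and checkpoint members were called. The background was 4.40% of all rows, these lists are small, and the difference between roles was not tested. The calls were not stable to the choice of animals. Without recovery animal 2 or recovery animal 3, or without repeated atrophy animal 2, which contributes a control limb, 0 members were called, beside 2.47%, 1.72% and 2.63% of all rows called higher. Without recovery animal 1 the count was 2 (0.887% of all rows), without repeated atrophy animal 1 it was 4 (4.75%) and without repeated atrophy animal 3 it was 3 (3.76%).

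**Figure D2:**
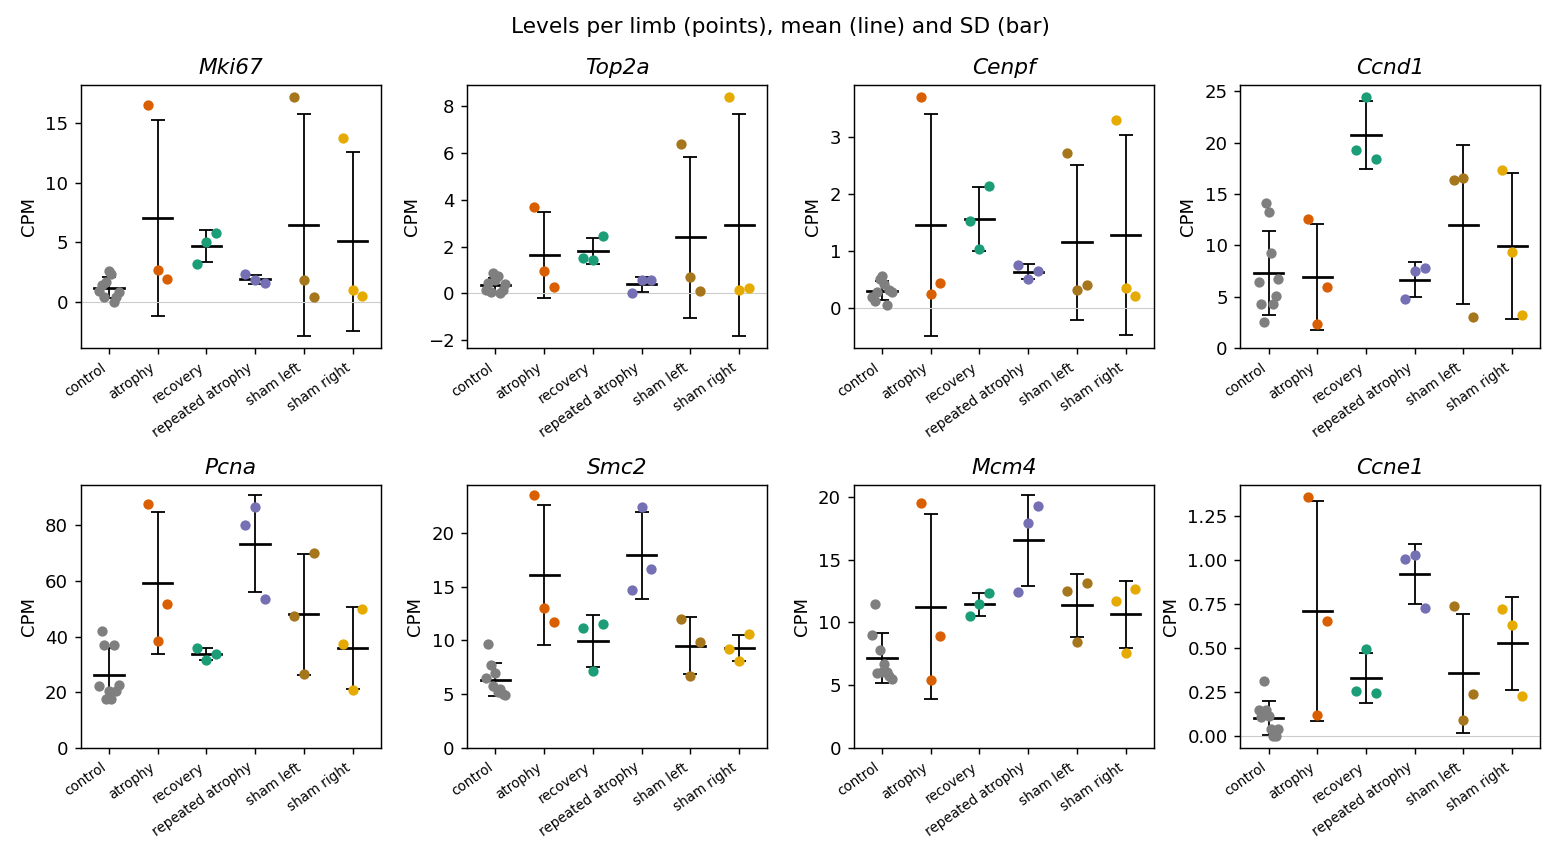
CPM of 8 members in every limb (points), with the mean (line) and SD (bar) of each group; bars reach below 0 where the SD exceeds the mean. Mki67, Top2a, Cenpf and Ccnd1 are above all control limbs in the 3 recovery limbs, and Pcna, Smc2, Mcm4 and Ccne1 are above all control limbs in the 3 repeated atrophy limbs.

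In the recovery animals some members were high in the untreated leg as well. The right limbs of the 3 recovery animals had 1.67, 2.54 and 2.33 CPM of Mki67, and the other 6 control limbs had 0 to 1.38 CPM. Ccnd1 was 14.1, 13.3 and 9.23 CPM in the former and 2.47 to 6.71 in the latter, and Top2a was 0.871, 0.553 and 0.735 CPM against 0 to 0.424. In all, 5 of the 34 members, Ccnd1, Kif11, Cenpf, Mki67 and Top2a, were higher in every right limb of the recovery animals than in any other control limb, beside 2.82% of all rows, and Mcm7 alone was lower in every one, beside 8.07% of all rows. In the right limbs of the repeated atrophy animals, Ccne1, Prc1 and Nusap1 were below every other control limb (0.649% of all rows) and 0 members above (0.656%), and in those of the atrophy animals 0 members were above or below. This is a description after the values were seen. With the animal as a block the fold change of Ccnd1 was 0.73 and that of Mki67 0.82, and 0 members were called (0.0428% of all rows; smallest adjusted p of a member 0.19). In the 3 recovery animals the left limb was the higher for 32, 25 and 31 of the 34 members, with median differences of 0.43, 0.25 and 0.50, and for 51.3%, 48% and 68.1% of all rows, with medians of 0.02, 0.00 and 0.22. This is a description, with no test.

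**Figure D3:**
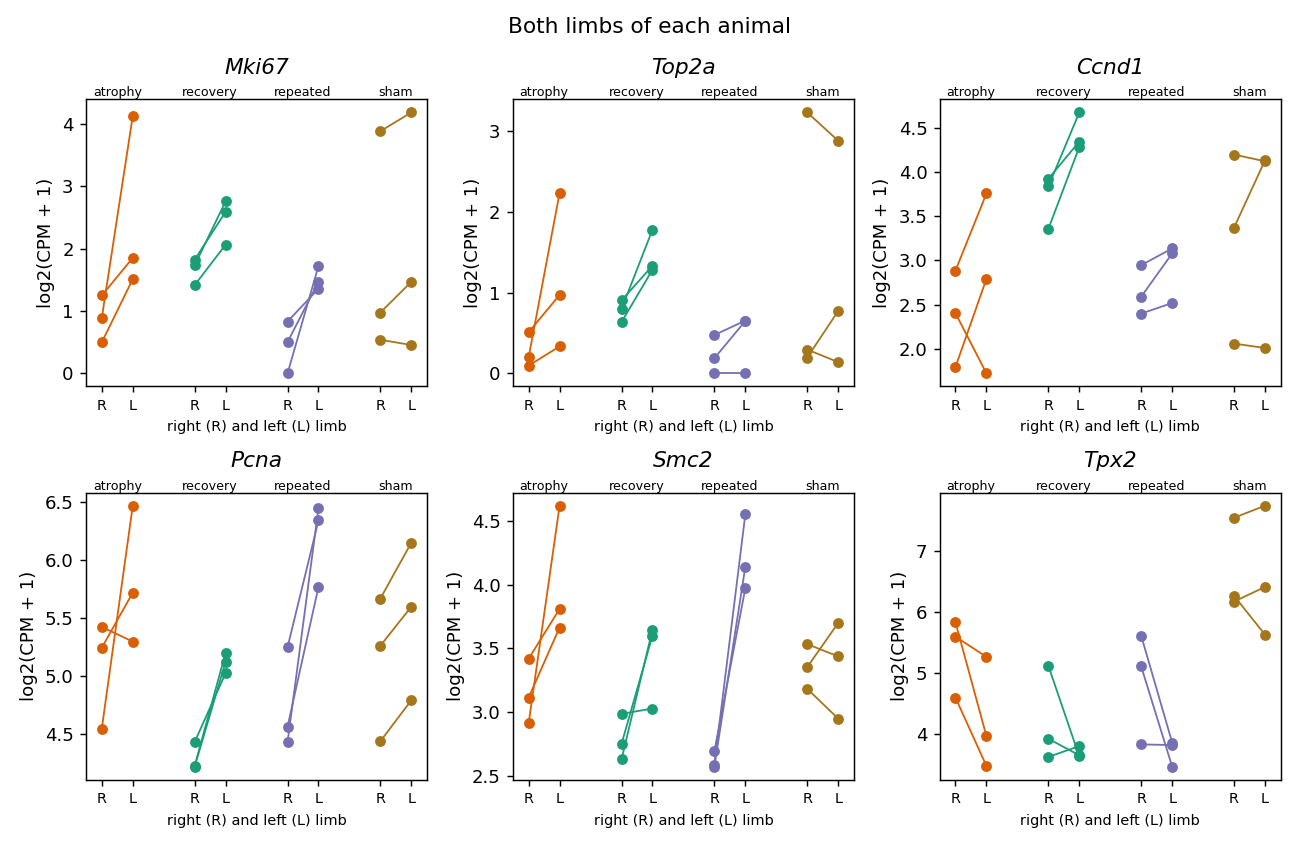
Both limbs of each animal, right (R) and left (L) joined by a line, as log2(CPM + 1) of 6 genes; colours mark the animals' arm. Among the right limbs of TTX animals, Mki67, Top2a and Ccnd1 are highest in the recovery animals, whose left limbs are higher still; sham animal 1 is above these right limbs in all 3 genes, Pcna and Smc2 rise steeply in repeated atrophy, and 5 of the 6 sham limbs are above all others for Tpx2.

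Markers of other cells moved with recovery. Of 8 fibroblast markers, 6 were called higher, among them Col3a1 and Col1a1, and their sum was 1254 to 2374 CPM in recovery against 220 to 644 in control. Macrophage markers were called higher for 4 of 12 (Cd68, Adgre1, Mrc1 and Itgam), with a sum of 244 to 534 CPM against 81.9 to 283, and lymphocyte markers for 4 of 9 tested (Cd3e, Cd3d, Cd3g and Cd2), with a sum of 13.5 to 36.1 against 4.78 to 21.9. The B cell marker Ms4a1 was at 0 in every control limb and in 2 of the 3 recovery limbs, and at 0.049 CPM in the other, about 1 read. With the animal as a block 0 of these fibroblast, macrophage and lymphocyte markers were called; the background without the block was 4.40% of all rows higher. After rescaling, 7 fibroblast, 7 macrophage and 5 lymphocyte markers were called higher, beside 5.77% of all rows. For endothelial markers 0 of 9 were called higher and 1 lower, and the sum was 227 to 232 CPM against 240 to 332. How far these cells account for the proliferation genes was not tested.

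In repeated atrophy, the members higher than control were Mcm4 (a subunit of the replicative helicase), Pcna, Rrm1 and Rrm2 (both subunits of ribonucleotide reductase, which makes deoxynucleotides), Ccnb1, Ccne1, Aurka (a spindle pole kinase), Prc1 and Smc2. That is 9 members higher and 0 lower, beside 28.1% of all rows called higher and 6.24% lower, so the share of members called higher is near the background. At an unadjusted p under 0.05, 10 were higher and 1 lower, and of all rows 35.1% and 8.19%. Only 22 of the 34 fold changes were positive and their median was 0.10, against 0.20 over all rows. After rescaling 17 were positive with a median of -0.01, and 5 members were called higher (Mcm4, Pcna, Ccne1, Prc1 and Smc2; 13% of all rows) and 1 lower (Tpx2; 12.1% of all rows).

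Pcna measured 80.3, 86.6 and 53.6 CPM in repeated atrophy, each above the highest control limb at 41.9 CPM, and its fold change was 1.49 ± 0.27 (adjusted p = 0.00064, rescaled 1.11, adjusted p = 0.0025). Smc2 measured 14.7, 22.4 and 16.6 CPM, again with no overlap (1.37 ± 0.23, adjusted p = 0.00035). Mcm4 (chr11:85258443-85272145, plus strand) measured 12.43, 17.9 and 19.3 CPM against 5.5 to 11.5 CPM in control (1.12 ± 0.27, adjusted p = 0.0044). It was the 1 MCM subunit called; the other 5 had fold changes of -0.04 to 0.50 and were not called. Ccne1 (chr1:90781947-90791189, minus strand) measured 1.00, 1.03 and 0.725 CPM against 0 to 0.309 CPM in control, so it was low but set apart in all 3 limbs (0.80 ± 0.15, adjusted p = 0.00068). Prc1 (chr1:134250223-134271766, plus strand) measured 4.31, 5.28 and 4.05 CPM against 0.322 to 1.38 (1.57 ± 0.36, adjusted p = 0.0030). These 5 members were called with either scaling and with the animal as a block.

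With the block 7 members were called, these 5 with Ccnb1 and Rrm2, beside 21.5% of all rows, and Rrm1 (adjusted p = 0.052) and Aurka (adjusted p = 0.14) were not. The latter 2 rose by 0.47 and 0.57 in the fit without the block, and their limbs overlapped with control. Leaving out repeated atrophy animal 2 or 3 left 5 calls, again Mcm4, Pcna, Ccne1, Prc1 and Smc2, beside 14.5% and 19.7% of all rows. Members that act in mitosis were called in part (Prc1, Smc2, Ccnb1 and Aurka, the last pair not after rescaling). Among those not called, Top2a was 0, 0.567 and 0.573 CPM, Cdk1 was 0.042, 0.142 and 0.076 CPM (control 0.034 to 0.516), and Aurkb, the kinase of the chromosomal passenger complex, was 0, 0.036 and 0.267 CPM (control 0 to 0.774). Mki67 measured 2.30, 1.77 and 1.56 CPM and was not called. These values lay within the range of the 9 control limbs, whose highest values are those of the recovery animals, and above the other 6 control limbs (0 to 1.38 CPM). In each of the 3 animals the left limb was the higher, the right limbs having 0, 0.416 and 0.780 CPM.

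**Figure D4:**
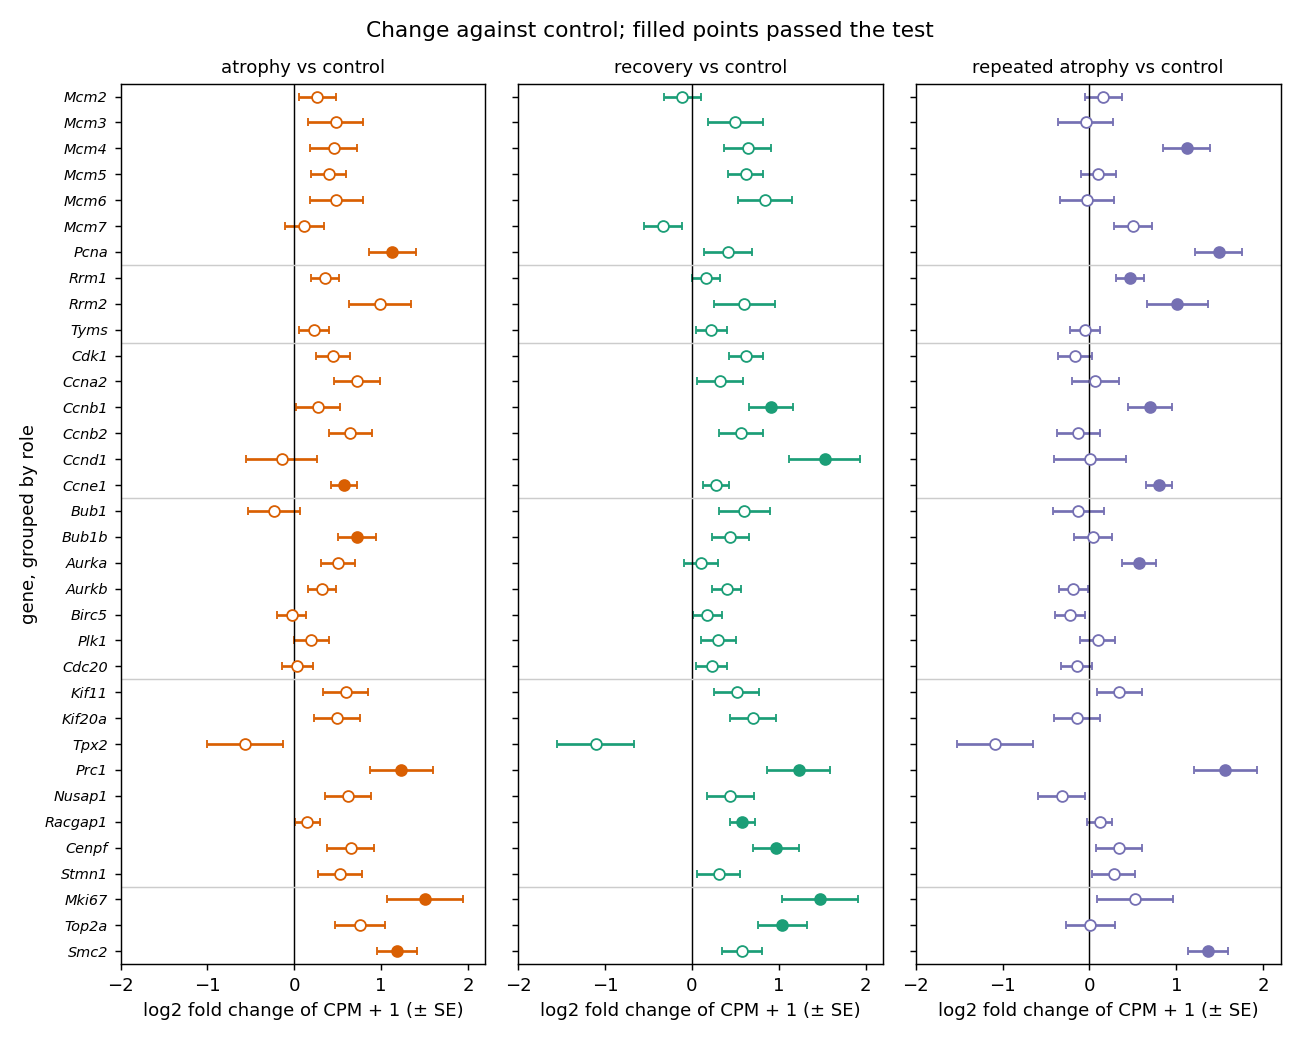
Log2 fold change of CPM + 1 against control (± SE) of the 34 members in atrophy, recovery and repeated atrophy; filled points passed the test. The 7 filled points of recovery sit mostly among the cyclins, spindle and chromosome genes, and the 9 of repeated atrophy are led by Prc1, Pcna, Smc2 and Mcm4.

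The treated groups were also compared with each other; these comparisons share the treated limbs with those above. Repeated atrophy and recovery differed in 8 members. Pcna (1.07 ± 0.34), Mcm7 (0.83 ± 0.27), Smc2 (0.80 ± 0.28) and Ccne1 (0.53 ± 0.18) were higher in repeated atrophy, and Ccnd1 (-1.52 ± 0.50), Top2a (-1.03 ± 0.35), Cdk1 (-0.79 ± 0.24) and Aurkb (-0.59 ± 0.20) were lower, with limma adjusted p-values between 0.020 and 0.043. Of the 34 members, 5 had every limb of repeated atrophy above every limb of recovery and 14 had every one below, as did 32% and 10.5% of all rows; the 8 called are among these. The background was 21% of rows higher and 6.29% lower. After rescaling, 0 members were higher (10.8% of all rows) and 8 were lower (10.9%): Mcm6, Cdk1, Ccnb2, Ccnd1, Aurkb, Kif20a, Racgap1 and Top2a. With the animal as a block 0 were called in either direction (0.0214% and 0.0641% of all rows; smallest adjusted p of a member 0.19). Recovery exceeded atrophy in Ccnd1 alone, by 1.67 ± 0.50 (adjusted p = 0.030; background 3.34% higher and 14.5% lower), and this call was lost with the block (0.33, adjusted p = 0.88) and without any of atrophy animals 2 and 3 or the 3 recovery animals; without atrophy animal 1 the count was 4, beside 1.77% of all rows. Of the calls between repeated atrophy and recovery, leaving out any 1 of their 6 animals left 0 to 2 members higher, beside 8.99% to 20.9% of all rows, and 0 to 2 lower, beside 3.82% to 5.58%. Without atrophy animal 1 the count lower was 9, beside 6.38% of all rows.

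Between repeated atrophy and atrophy, limma called 0 of the 34 (background 0.0143% higher and 0.0214% lower). At an unadjusted p under 0.05, 0 were higher and 6 lower in repeated atrophy (2.86% and 3.44% of all rows), and the smallest adjusted p was 0.54. The 3 atrophy limbs themselves ranged from 1.85 to 16.5 CPM for Mki67.

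Sham left against control, a comparison between different animals, gave 0 calls among the 34 and in the whole table (0% higher and 0% lower of 13822 rows tested). At an unadjusted p under 0.05, however, 19 members were higher in sham left and 0 lower (12.9% and 0.904% of all rows), all 34 fold changes were positive, and their median was 0.63 against 0.17 over all rows. The smallest adjusted p was 0.13, for Prc1, at 7.18, 1.68 and 6.40 CPM. The sham animals were unlike each other. Mki67 was 17.2 CPM in the left and 13.8 CPM in the right limb of sham animal 1, 1.77 and 0.968 in animal 2 and 0.370 and 0.453 in animal 3. Top2a was 6.37 and 8.40 CPM in animal 1 and at most 0.708 in the others. Both limbs of sham animal 1 also had the most Mcm6 (12.0 and 11.3 CPM), Cdk1 (3.42 and 3.54 CPM), Aurkb (3.57 and 2.99 CPM) and Bub1b (2.68 and 2.86 CPM), which was more than any limb of a TTX animal. The same limbs had summed lymphocyte markers of 85.7 and 80.8 CPM against 4.73 to 36.1 in the 18 limbs of TTX animals, and summed endothelial markers of 614 and 716 CPM against 195 to 332. Within the 3 sham animals the left limb was higher for 18, 22 and 20 of the 34, and for 45.2%, 62.6% and 43.1% of all rows. In a limma test of left against right within these animals, the smallest adjusted p of a member was 0.94. The sum of all members was 230 to 446 CPM in sham right and 217 to 498 CPM in sham left, against 155 to 247 CPM in control.

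Across the 24 limbs, 19 of the 32 other members had a correlation above 0.6 with the mean of Mki67 and Top2a. Without sham animal 1 and atrophy animal 1, 11 had one. The share of all rows above 0.6 was not counted. Pearson's r with that mean on the log2 scale was 0.93 for Cenpf and Mcm6, 0.92 for Ccna2 and Bub1b and 0.91 for Mcm5 and Cdk1, but 0.39 for Smc2, 0.19 for Pcna, -0.08 for Tpx2 and -0.19 for Mcm7. The points share animals and libraries, and 3 limbs hold much of the range. Without sham animal 1 and atrophy animal 1, over 20 limbs, Cenpf was at 0.79, Mcm6 at 0.75 and Ccna2 at 0.77, while Mcm3 went from 0.82 to 0.39, Stmn1 from 0.73 to 0.12 and Tyms from 0.56 to 0.04. Mcm7 was at -0.59 and Tpx2 at -0.48. Among 10600 other rows with a mean of at least 1 CPM, the 10 most like Mki67 and Top2a were Tyrobp, Plek, Lcp1, Cotl1, Glipr1, Laptm5, Cxcl10, Cd53, Spn and Fam111a, with r from 0.88 to 0.90. Most of these are known from leukocytes; Tyrobp is a signalling adaptor of myeloid cells and Cd53 a leukocyte tetraspanin. Without those 2 animals the same 10 rows had r from 0.56 to 0.75, and 0 of them remained among the 10 most alike, which were then led by Blvra (0.86) and Tacc3 (0.86), the latter a spindle protein.

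**Figure D5:**
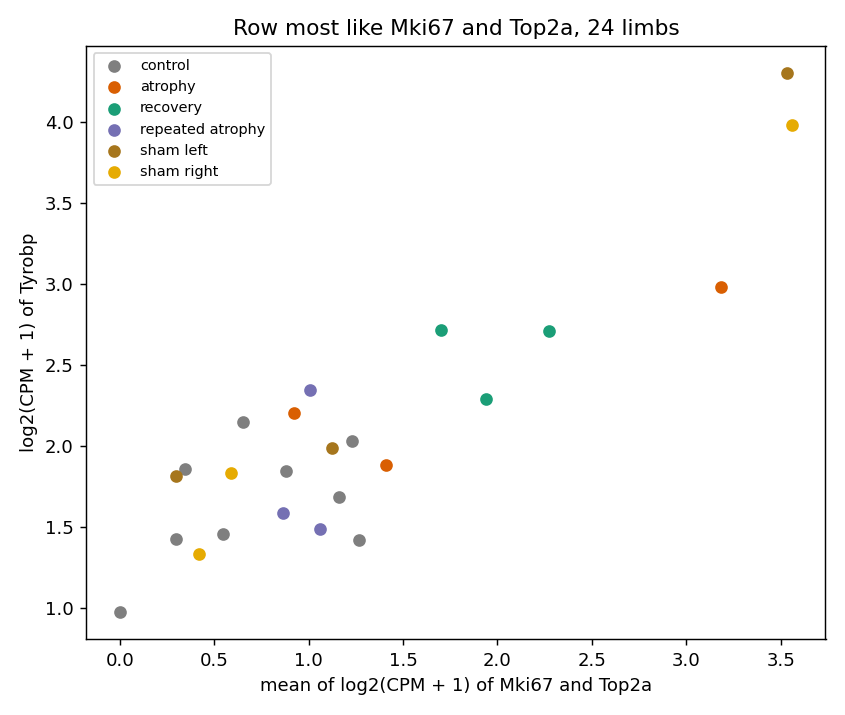
Level of Tyrobp against the mean level of Mki67 and Top2a in 24 limbs, both as log2(CPM + 1), coloured by group. Both limbs of sham animal 1, at 18.8 and 14.8 CPM of Tyrobp, and the left limb of atrophy animal 1, at 6.90 CPM, lie at the upper right, and the other limbs are at or below 5.57 CPM.

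Tpx2 and Mcm7 had the lowest correlations with Mki67 and Top2a. Tpx2, which activates Aurka on spindle microtubules, measured 11.3 to 55.8 CPM in control (median 33.5). The atrophy limbs had 14.6, 37.4 and 10.1 CPM, the recovery limbs 11.4, 11.5 and 12.9 CPM and the repeated atrophy limbs 13.1, 10.0 and 13.5 CPM. The 6 sham limbs had 48.4 to 213 CPM, of which 5 were above every control limb. No comparison with control called it in CPM (repeated atrophy -1.09 ± 0.44, adjusted p = 0.063), but it was called lower in repeated atrophy after rescaling (-1.44, adjusted p = 0.023). Mcm7 measured 25.1, 21 and 30.6 CPM in recovery and 45.0, 40.1 and 52.8 CPM in repeated atrophy and was not called against control. Per kilobase its control level, 14.2 CPM per kb, exceeded the 2.49 of Mcm2 and the 2.14 of Mcm4, with which it forms a hexamer. For Ccnb2 the table has 2 rows, and the one used here, with the higher mean, lies on chromosome 1 at chr1:20099746-20101237 inside the listed span of Akap7 on the other strand. The other row, on chromosome 8, had at most 0.330 CPM in any group. How reads were split between the copies is not stated, so the level of Ccnb2 is uncertain; its control range was 0.046 to 0.663 CPM.

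Other genes of the cell cycle, 138 in the table from a list of 158 that are not members, were counted in the same way. In atrophy 32 (23.2%) were called higher, beside 20.3% of all rows, and 2 lower, beside 2.33%. After rescaling 9 were higher, beside 4.55% of all rows, and 3 lower. With the block 0 were higher, beside 0% of all rows, and 0 lower. In recovery 10 (7.25%) were higher, beside 4.40% of all rows, and 2 lower, beside 3.33%. After rescaling 16 were higher, beside 5.77% of all rows, and 3 lower, and with the block 0 were higher, beside 0.0428%, and 0 lower. In repeated atrophy 41 (29.7%) were higher, beside 28.1%, and 4 lower, beside 6.24%. After rescaling 19 were higher, beside 13% of all rows, and 6 lower, beside 12.1%. With the block 25 were higher, beside 21.5% of all rows, and 5 lower. The medians were 0.33, 0.23 and 0.23, beside 0.22, 0.02 and 0.20 over all rows. The shares called higher in atrophy and in repeated atrophy were thus near the background.

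Among the called genes of this list the largest log2 fold change in atrophy and in repeated atrophy was that of Cdkn1a, a brake on division. Cdkn1a, which encodes the Cdk inhibitor p21, measured 1045, 899 and 1165 CPM in repeated atrophy and 1127, 193 and 620 CPM in atrophy, against 23.3 to 169 CPM in control. All 6 limbs were above every control limb, and the fold changes were 3.53 ± 0.56 (adjusted p = 0.00025) and 2.53 ± 0.56 (adjusted p = 0.0087; under the block 0.0098 and 0.18, respectively). Cdkn2b, the inhibitor p15, followed, with a rise of 2.61 ± 0.44 in repeated atrophy (27.6, 35.8 and 34.1 CPM against 2.58 to 14.8 in control) and of 1.68 ± 0.44 in atrophy. Rb1, the retinoblastoma protein that restrains E2F, rose by 1.70 ± 0.29 in repeated atrophy and 1.2 ± 0.29 in atrophy. Cdc25a, a phosphatase that activates Cdks, rose by 1.16 ± 0.24 in atrophy, and Cbx5, a heterochromatin protein, rose by 1.73 ± 0.30 in repeated atrophy. Espl1, the protease that releases sister chromatids, fell, with 0.419, 0.674 and 1.87 CPM in repeated atrophy against 3.82 to 12.9 in control (-2.12 ± 0.36) and -1.61 ± 0.36 in atrophy. With the animal as a block 0 genes of this list were called in atrophy.

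In recovery the named genes of that list were of the spindle, the kinetochore and the E2F family, with Ube2s. Nuf2, part of the kinetochore, measured 2.73, 1.31 and 1.41 CPM against 0.036 to 0.594 in control (1.06 ± 0.24, adjusted p = 0.014). Hmmr and Spag5, both of the mitotic spindle, rose by 1.04 ± 0.28 and 0.74 ± 0.17 (adjusted p = 0.032 and 0.015), with all 3 limbs above control. E2f4, a repressive E2F of the DREAM complex, was lower at 17.7, 18.5 and 18.6 CPM against 22.3 to 49.0 (-0.87 ± 0.20, adjusted p = 0.016). Ube2s, which extends ubiquitin chains for the anaphase promoting complex, was lower as well (-0.74 ± 0.18, adjusted p = 0.019). With the animal as a block 0 genes of this list were called in recovery. By list, 5 of 18 genes for spindle motors and cytokinesis and 0 of 23 for the replication fork and nucleotides were called higher in recovery, beside 4.40% of all rows. In repeated atrophy the counts were 2 of 18 (11.1%) and 6 of 23 (26.1%), beside 28.1% of all rows. Each other list had 0 to 2 higher in recovery. In repeated atrophy condensin, cohesin and chromatin had 7 of 11 (63.6%), CDK inhibitors 4 of 8 (50%) and origin licensing and firing 7 of 18 (38.9%). Kinetochore and checkpoint had 6 of 21 (28.6%), the G1, E2F and Rb list 5 of 19 (26.3%) and G2 and M regulators 4 of 20 (20%). After rescaling, spindle motors and cytokinesis had 6 of 18 in recovery and 1 of 18 in repeated atrophy. The replication fork list had 0 of 23 and 3 of 23. Of all rows 5.77% were then higher in recovery and 13% in repeated atrophy. Neither the difference between these lists nor that between these groups was tested for the lists.

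Markers of muscle stem cells and myoblasts were uneven in atrophy and repeated atrophy. Of 11, 4 were called higher in each, Myog, Myod1, Myf5 and Vcam1, and in repeated atrophy 2 were lower, Cdh15 (11.7 CPM on average against 23.3 in control) and Heyl (7.10 against 10.7). The background was 20.3% of all rows higher in atrophy and 28.1% higher and 6.24% lower in repeated atrophy. In atrophy 2 of the 11 were called higher after rescaling and 0 with the block, and in repeated atrophy 3 were higher and 2 lower in either case. The median log2 fold change of the 11 was 0.22 in atrophy and 0.14 in repeated atrophy, beside 0.22 and 0.20 over all rows. Pax7, which marks resting stem cells, was at 0.232 CPM on average in atrophy and 0.740 in repeated atrophy against 0.506 in control, and Notch3 at 13.1 and 12.5 against 21.05; neither was called. Myog, which drives myoblasts to differentiate and is also raised in fibres that lose their nerve input, was 528 CPM on average in repeated atrophy and 465 in atrophy against 57.4 in control. The sum of the 11, most of which is Myog and Myod1, was 114 to 262 CPM in control limbs and 117 to 255 CPM in recovery limbs, and it was 307 to 1092 CPM after the first TTX period and 688 to 853 CPM after the second. In recovery 1 of the 11 was called higher (Vcam1) and 1 lower (Cdh15). Macrophage and lymphocyte markers were called for 0 of 12 and 0 of 9 in repeated atrophy, as were 0 of 8 fibroblast markers; after rescaling 1 macrophage marker was lower. Of the other cells, 1 of 9 endothelial markers was lower (Tie1), with 6 after rescaling and 0 with the block. Of 6 pericyte and smooth muscle markers 0 were called, but 2 were lower after rescaling or with the block. Of 5 neutrophil and mast cell markers tested, 1 was higher in each of these fits (S100a8). Their part in the levels of the proliferation genes was not tested.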

How the data were processed

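The authors deposited normalised expression as CPM per transcript row (rn7 coordinates), made with Partek, STAR and Bowtie2 2.2.5 per their processing notes, from directional polyA libraries; the counting step and annotation are not given in the sources used here. The deposited columns share 1 total, and 3 of 27 value columns, which match no sample, were not used. Of 14271 rows, 28 duplicates were dropped. Because low values were not whole multiples of 1 read often enough, no count test was run.

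Rows above 0 in at least 3 limbs (14031) were tested with limma 3.58.1 (R 4.3.3, trend) on log2(CPM + 1), with 18 limbs of TTX animals in 1 fit and sham left against control in another; SE is that of limma. Each symbol was represented by its row of highest mean. Left and right limbs of 1 animal are paired by the labels; the deviations of paired limbs correlated at -0.32 to 0.53 in TTX animals and 0.62 to 0.84 in sham animals over 10619 rows, so a fit with the animal as a block is given where it changes a call. All members were reported, with up to 5 called genes of the pathway lists per comparison with control, of the largest fold and a mean of at least 1 CPM in a group, and the 10 rows most like Mki67 and Top2a. The members and lists were chosen with earlier results of these data known. Other scalings, filters, pseudocounts, controls and sets of animals were tried; the median of ratios scaling, the control of a group's own right limbs and the likeness without certain limbs were added after seeing the data. The calculations were tested on simulated data. Promoters are from RefSeq (GRCr8) and were matched by symbol, without conversion of coordinates. p-values measure the spread among 3 animals a group and 9 control limbs.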

Additional observations from a re-analysis of the deposited data

Results flagged for a closer look

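Among the 9 control limbs, 5 of the 34 members had 1 limb set apart from the rest by Dixon's ratio of gap to range, whose 95% critical value chance passes in about 1 of 20 groups. The ratios were 0.501 for Rrm1 and 0.775 for Stmn1, both from the right limb of atrophy animal 2 (60.1 and 15.1 CPM), 0.605 for Ccna2 and 0.737 for Kif11, both from the right limb of recovery animal 3, and 0.520 for Ccne1, from the right limb of atrophy animal 3.

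The treated groups differed from each other, by limma's test of the difference, in 8 members. Repeated atrophy exceeded recovery by 0.83 (log2) for Mcm7, 1.07 for Pcna, 0.53 for Ccne1 and 0.80 for Smc2. It lay below recovery, with differences of -0.79 for Cdk1, -1.52 for Ccnd1, -0.59 for Aurkb and -1.03 for Top2a. Recovery exceeded atrophy by 1.67 for Ccnd1. With the animal as a block 0 of these 9 differences were called.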

How the results depend on the processing

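Calls were sensitive to scaling, to the control and to single animals. Percentages in brackets are shares of all rows called in the same direction, and those of the other settings are not given here. The 6 members higher in atrophy (20.3%) became 2 with trimmed means (4.55%), with median of ratios or with 12 right limbs as control. The count was 0 with the animal as a block (replicate block, 0%) or with the group's own right limbs. The 7 of recovery (4.40%) became 3 with a pseudocount of 0.1, and 3 with a mean of at least 1 CPM, where the other 4 were not tested. The count was 1 with 12 right limbs, and 0 with the replicate block (0.0428%) or its own right limbs. The 9 of repeated atrophy (28.1%) became 5 with either rescaling (13% with trimmed means) or 12 right limbs, and 7 with the replicate block (21.5%). For members lower in repeated atrophy, 0 (6.24%) became 1 (Tpx2) with either rescaling (12.1% with trimmed means), a mean of at least 1 CPM or 12 right limbs. Ccnd1, the 1 member higher in recovery than in atrophy, was lost with the block (0). Of the 4 higher in repeated atrophy than in recovery (21%), 0 remained with either rescaling (10.8% with trimmed means) or the block (0.0214%). The count was 2 with 12 right limbs. For the 4 lower (6.29%), the count was 8 with trimmed means (10.9%), 9 with median of ratios and 0 with the block (0.0641%). It was 1 with a mean of at least 1 CPM, where the other 3 were not tested, or with 12 right limbs. Leaving out each animal gave, against control, from 0 to 14 members higher for atrophy, beside 0.00715% to 30.7% of all rows. For recovery it gave 0 to 10 (0.887% to 6.7%) and for repeated atrophy 5 to 10 (14.5% to 30.9%). Members lower in repeated atrophy were 0 to 1 (3.86% to 6.75%). In recovery against atrophy, 0 to 4 were higher (0.737% to 3.79%) and 0 to 2 lower (1.82% to 22.7%). In repeated atrophy against recovery, 0 to 4 were higher (8.99% to 23.3%) and 0 to 9 lower (3.82% to 7.05%). In sham left 0 to 2 were higher, with 2 (Ccnb1 and Prc1) without sham animal 2, beside 0.798% of all rows. No called member reversed its direction under these alternatives. The causes were not tested. Depth limits the members under 1 CPM, where a limb has few reads.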
